A study of Mus musculus with 18 samples.

Results

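Collagen genes were taken from the deposited table by symbol, as Col, a number, the letter a and a second number, which selected 44 of 21959 genes. They comprised 11 fibrillar, 6 basement membrane and 9 FACIT genes (fibril-associated collagens with interrupted triple helices) and 18 others. Their RNA was measured in MOVAS, an immortalised mouse aortic smooth muscle cell line, in 18 libraries that fall into 6 groups of 3. D_I was read as doxorubicin with isoliensinine, and Dox received doxorubicin, a DNA-damaging anthracycline. H_I was read as hydrogen peroxide with isoliensinine, and H2O2 received hydrogen peroxide, an oxidant. B_I was read as isoliensinine alone, and Blank was the untreated control, with replicates numbered 1, 2 and 4. The labels name isoliensinine, a plant alkaloid, as the only agent of D_I, H_I and B_I, and the reading of each as an arm of Dox, H2O2 and Blank rests on the parallel titles. The series describes doxorubicin and hydrogen peroxide as inducers of senescence. All groups are cultures of a single immortalised line, and no source used here states doses or durations of treatment.

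Collagens are secreted proteins of 3 chains wound into a triple helix. Fibrillar collagens, mainly types I and III with types V and XI as regulators of fibril diameter, give the arterial wall its tensile strength. Type IV collagen builds the sheet-like network of the basement membrane that surrounds each smooth muscle cell. FACIT collagens decorate fibrils, type VI forms beaded filaments next to cells, and multiplexins carry matrix-bound fragments with their own activities. Each chain has its own gene, so the chains of a trimer have to be made in matching amounts.

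Among the 6 type IV genes, 3 head-to-head pairs lay next to each other in the deposited coordinates, whose genome build is not named. Col4a1 and Col4a2, on opposite strands of chromosome 8, overlapped by 22 bases. Col4a4 and Col4a3 on chromosome 1 were 71 bases apart, and Col4a6 and Col4a5 on chromosome X were 1308 bases apart. Either end of the gene equalled a GRCm38 annotation for only 3 of the 44 genes. Deposited positions are therefore not comparable with those of the windows below. Promoter windows of RefSeq (GRCm38.p6), each from 250 bases before to 50 bases after a start site, matched 35 of the 44 genes with 38 windows. The windows below show the shared start region of Col4a1 and Col4a2, which were not called in any comparison of all libraries with TMM scaling, beside those of Col1a2 and Col3a1, the fibrillar genes that changed most. Capitals mark CCAAT, the GC box GGGCGG, the TATA box TATAAA and the SMAD-binding element CAGAC on either strand, and no capital stretches overlap. Col1a2 lies at chr6:4505368-4505667 (+), Col3a1 at chr1:45311288-45311587 (+), Col4a1 at chr8:11312777-11313076 (-) and Col4a2 at chr8:11312555-11312854 (+).
Col1a2: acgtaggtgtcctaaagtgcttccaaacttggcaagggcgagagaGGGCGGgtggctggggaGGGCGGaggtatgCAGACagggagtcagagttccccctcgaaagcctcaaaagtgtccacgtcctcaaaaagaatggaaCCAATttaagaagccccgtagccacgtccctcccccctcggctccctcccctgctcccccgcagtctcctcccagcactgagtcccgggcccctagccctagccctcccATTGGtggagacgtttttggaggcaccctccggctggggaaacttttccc
Col3a1: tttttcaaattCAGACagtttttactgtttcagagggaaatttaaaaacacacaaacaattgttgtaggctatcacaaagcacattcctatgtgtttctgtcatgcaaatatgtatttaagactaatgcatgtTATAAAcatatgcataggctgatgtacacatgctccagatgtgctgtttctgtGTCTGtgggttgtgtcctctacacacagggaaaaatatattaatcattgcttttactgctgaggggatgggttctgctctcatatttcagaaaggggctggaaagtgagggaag
Col4a1: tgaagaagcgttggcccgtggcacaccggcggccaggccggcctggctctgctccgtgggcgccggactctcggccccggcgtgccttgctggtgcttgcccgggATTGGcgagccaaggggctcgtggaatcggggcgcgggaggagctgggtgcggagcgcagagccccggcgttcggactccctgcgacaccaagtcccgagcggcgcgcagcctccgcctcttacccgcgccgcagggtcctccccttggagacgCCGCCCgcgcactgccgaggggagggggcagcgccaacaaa
Col4a2: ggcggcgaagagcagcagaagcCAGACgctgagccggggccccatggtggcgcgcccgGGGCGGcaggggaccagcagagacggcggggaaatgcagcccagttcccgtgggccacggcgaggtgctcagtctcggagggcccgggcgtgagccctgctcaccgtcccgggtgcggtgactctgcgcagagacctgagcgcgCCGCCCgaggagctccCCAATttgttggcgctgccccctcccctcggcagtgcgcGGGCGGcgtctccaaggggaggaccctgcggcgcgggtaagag

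The start sites of Col4a1 and Col4a2 were 21 bases apart, and their windows shared 78 bases, with the same GC box read from each strand. Their windows held 74.0% and 73.7% G and C, Col1a2 held 61.0% and Col3a1 37.7%, against a median of 52.7% over all promoters. The window of Col3a1 had the lowest content of the 38 collagen windows. A GC box stood in 23 of 38 collagen windows and in 35.7% of 32851 windows of all genes, CCAAT in 13 and in 37.4%, TATAAA in 5 and in 13.6%, and CAGAC in 20 and in 49.6%. These matches describe letters in a window and say nothing about binding.

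Depth ran from 12859609 to 23284077 counts per library. Acta2, the smooth muscle actin gene, was at 367 to 2056 FPKM, but Tagln, a smooth muscle marker, stayed at or below 0.407 and Myocd, the master regulator of the lineage, at or below 0.111 FPKM. Of the 10 smooth muscle markers listed, 6 to 8 averaged over 1 FPKM in each group, among them Smtn at 23.3 to 45.5 and Des at 3.55 to 8.02. The 6 fibroblast markers summed to 2.93 to 7.87 FPKM over all libraries, with Pdgfra at 1.25 to 3.76 and the other 5 at or below 1.92, and each of the 4 endothelial markers stayed under 1 FPKM. The 8 colon epithelium markers summed to 49.9 to 65.6 FPKM in D_I, 31.3 to 91.4 in Dox, 78.0 to 259 in H_I, 18.2 to 56.6 in H2O2, 24.1 to 93.8 in B_I and 21.5 to 64.1 in Blank, with H_I 1 the highest. The 5 liver markers summed to 49.7 to 144 FPKM in H_I, again highest in H_I 1, and to 16.6 to 44.5 in the other groups. The 5 macrophage markers summed to 22.9 to 34.9 FPKM in D_I, 17.8 to 31.5 in Dox, 16.0 to 29.7 in H_I, 8.28 to 21.7 in H2O2, 8.43 to 28.5 in B_I and 6.67 to 22.9 in Blank. Among them Cd68, a lysosomal gene, was at 15.7 to 18.4 FPKM in D_I and 10.6 to 18.5 in Dox, against 1.43 to 2.92 in B_I and 0.777 to 4.76 in Blank, while Adgre1, Csf1r and Ptprc stayed at or below 0.617 in all 18 libraries. Lyz2, the remaining marker, was at 2.21 to 25.1 FPKM over all libraries, with the highest value in B_I 1. The part of Cd68 in the collagen differences was not tested. B_I 3 and Blank 4 stood apart, with Acta2 at 1765 and 2056 FPKM, against 511 and 536 in the other B_I libraries and 367 and 410.4 in the other Blank libraries. In both libraries Col6a1 and Col6a2 were high and Col4a5 was low for their group, so calls that change without them are given beside the results.

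All levels are the deposited FPKM values (fragment counts scaled to gene length and library total) divided by the TMM factor of the library, an edgeR scaling that evens out differences in composition. In the deposited FPKM, before this division, 13 collagen genes reached a mean of at least 5 in some group. In untreated cells type I dominated, with Col1a1 at 830.3 ± 87.9 and Col1a2 at 621 ± 76.0 FPKM (SD, n = 3). Col6a1 followed at 239 ± 62.6 and Col6a2 at 63.0 ± 16.6 FPKM, ahead of Col5a1, Col5a2, Col4a2, Col4a1 and Col4a6 at 26.3 to 45.04. Col3a1, the partner of type I in arterial fibrils, was at only 17.3 ± 2.28 FPKM. Neighbours in this order from Col5a1 to Col4a1 did not differ beyond their spread, while Col1a1 over Col1a2 held in every library.

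The 44 genes together took 0.637 to 0.672% of counts in D_I, 0.592 to 0.687% in Dox, 0.875 to 1.04% in H_I, 0.812 to 1.06% in H2O2, 1.21 to 1.46% in B_I and 1.42 to 1.62% in Blank. The doxorubicin groups lay below every other library, and the hydrogen peroxide groups lay between them and the cultures without an inducer. Type I made up 60.6 ± 0.350% of the summed collagen FPKM in D_I, 60.8 ± 0.604% in Dox, 70.1 ± 0.653% in H_I, 67.8 ± 3.30% in H2O2, 73.0 ± 2.91% in B_I and 73.1 ± 1.64% in Blank (SD, n = 3). Type IV moved the other way as a share, at 11.1 ± 0.615% in D_I and 10.8 ± 0.484% in Dox, against 5.15 ± 0.180% in B_I and 5.24 ± 0.230% in Blank. In FPKM the 6 type IV genes summed to 89.3 ± 3.33 in D_I and 82.2 ± 7.33 in Dox, against 90.3 ± 9.69 in B_I and 103.8 ± 10.3 in Blank. Fewer cells making a transcript and less transcript per cell cannot be told apart in these bulk samples.

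**Figure D1:**
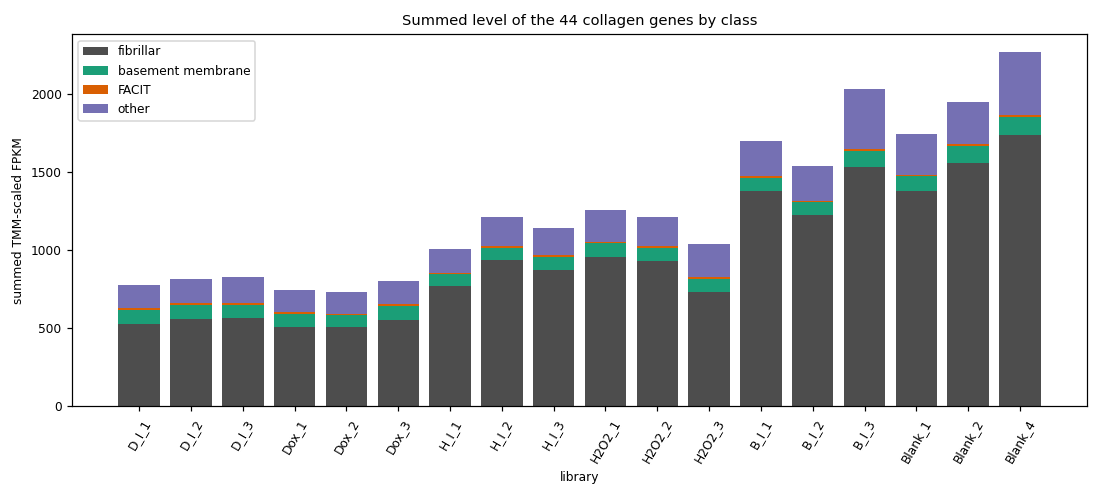
Summed TMM-scaled FPKM of the 44 collagen genes in each of the 18 libraries, stacked by class, with the vertical axis starting at 0. The fibrillar part was lowest with doxorubicin, at 529 to 562 FPKM in D_I and 506 to 554 in Dox against 1226 to 1536 in B_I and 1381 to 1740.0 in Blank, while the basement membrane part was 85.8 to 92.4 in D_I and 75.1 to 89.7 in Dox against 81.7 to 100.8 in B_I and 92.8 to 113 in Blank.

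**Figure D2:**
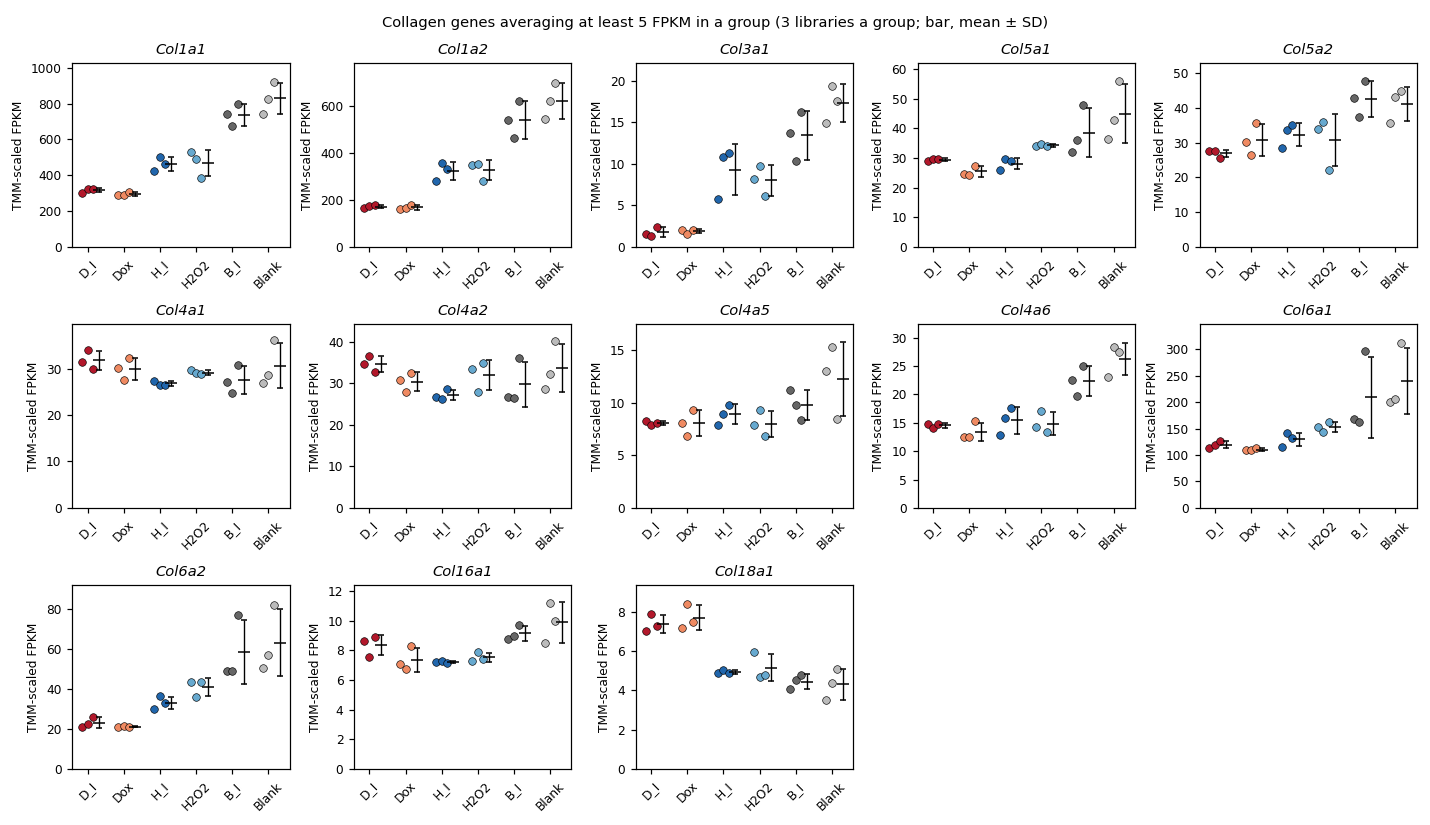
TMM-scaled FPKM of the 13 collagen genes whose deposited FPKM reached a group mean of 5. Each library has a point, and a bar gives the mean and SD of 3 libraries. The points of D_I and Dox lie below all those of B_I and Blank for Col1a1, Col1a2, Col3a1, Col6a1 and Col6a2, overlap them for Col4a1 and Col4a2, and lie above them for Col18a1.

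Doxorubicin without isoliensinine was compared first. In Dox cells 12 of the 30 collagen genes that passed the expression filter were lower than in Blank cells and 1 was higher, where 11.4% of all 13375 tested genes were lower and 10.3% higher (edgeR's quasi-likelihood test, Benjamini-Hochberg adjusted p under 0.05). In the fibrillar class 6 of 10 tested genes were lower, and in the basement membrane class 3 of 6. Among FACIT genes 1 of 4 was lower, and among the others 2 of 10 were lower and 1 was higher. The median log2 change was -0.47 over the 30 collagen genes and 0.08 over all tested genes. Scaling by library totals alone moved the median of all genes to 0.25 and the calls over all genes to 2456 higher and 1012 lower, against 1372 and 1524 with TMM, and left 1 collagen gene higher and 9 lower.

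Col1a1, which encodes the alpha-1 chain of type I collagen, had 288, 287 and 307 FPKM in Dox libraries, against 743, 829 and 919 in Blank libraries. Col1a2, its alpha-2 partner, had 162, 163 and 178 FPKM in Dox libraries, against 546, 619 and 697 in Blank libraries. No Dox library came near the Blank range for either gene. Col1a1 was 2.82-fold lower (log2 -1.50, SE 0.119, adjusted p = 2.43e-08) and Col1a2 3.70-fold lower (log2 -1.89, SE 0.132, adjusted p = 3.61e-09).

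Col3a1, whose homotrimer forms fine fibrils of vessel walls, had 2.01, 1.59 and 2.03 FPKM in Dox libraries, against 14.9, 19.4 and 17.6 in Blank libraries. The groups were far apart, and the 9.22-fold lower level (log2 -3.21, SE 0.265, adjusted p = 1.11e-07) was the largest change among the collagen genes called. Col3a1 over Col1a1 was 0.00637 ± 0.000752 in Dox, against 0.0209 ± 0.00226 in Blank (SD, n = 3, groups separate). An exact two-sided permutation test of 3 against 3 libraries cannot go below p = 0.1, the value reached here. Among the 24 chain ratio comparisons made, the adjusted value was 0.2 wherever groups were separate.

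Of the type V and XI genes, whose chains join type I in heterotypic fibrils, Col5a1, Col5a2 and Col11a1 were called lower, while Col5a3 and Col11a2 were not called. Col5a1 had 24.6, 24.3 and 27.4 FPKM in Dox libraries, against 36.3, 42.9 and 55.9 in Blank libraries (log2 -0.82, SE 0.137, adjusted p = 0.000182). Col5a2 had 30.2, 26.4 and 35.6 FPKM in Dox libraries, against 35.5, 43.0 and 44.96 in Blank libraries, and the groups touched (log2 -0.42, SE 0.151, adjusted p = 0.0494). Col11a1, which nucleates thin fibrils, was low throughout at 0.841, 0.685 and 1.27 FPKM in Dox libraries, against 2.60, 3.18 and 2.35 in Blank libraries. Its groups did not overlap (log2 -1.54, SE 0.225, adjusted p = 4.14e-05). The call of Col5a2 was lost without Blank 4 (adjusted p = 0.113) and in several other settings.

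The basement membrane genes split. Col4a1 had 30.1, 27.6 and 32.3 FPKM in Dox libraries, against 27.0, 28.7 and 36.1 in Blank libraries, and Col4a2 had 30.6, 27.9 and 32.5 against 28.7, 32.1 and 40.1. These main chains of type IV overlapped between the groups, for Col4a2 only in part, and were not called. Their log2 changes were -0.03 (95% interval -0.25 to 0.19) and -0.15 (-0.42 to 0.12), and both turned positive under library totals. Col4a6, a minor chain of the smooth muscle basement membrane, had 12.6, 12.4 and 15.2 FPKM in Dox libraries, against 23.02, 28.3 and 27.5 in Blank libraries, with no overlap (log2 -0.97, SE 0.130, adjusted p = 1.56e-05). Col4a5, its partner, had 8.04, 6.85 and 9.34 FPKM in Dox libraries, against 13.03, 15.3 and 8.44 in Blank libraries, and Blank 4 lay inside the Dox range. Its log2 change was -0.60 (SE 0.173, adjusted p = 0.0152) with all libraries and -0.84 without Blank 4 (adjusted p = 0.000273).

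Col4a4 had 0.351, 0.270 and 0.286 FPKM in Dox libraries, against 0.945, 1.21 and 0.850 in Blank libraries, a change between low levels with no overlap (log2 -1.73, SE 0.303, adjusted p = 0.000301). Its head-to-head neighbour Col4a3 stayed at or below 0.123 FPKM in all 18 libraries. Of the 3 head-to-head pairs, Col4a6 and Col4a5 were both called lower, Col4a4 was called without Col4a3, and neither Col4a1 nor Col4a2 was called.

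Col6a1 and Col6a2, chains of the beaded filaments of type VI collagen, had the next largest levels after type I. Col6a1 had 109, 109 and 113 FPKM in Dox libraries, against 201, 206 and 312 in Blank libraries. Col6a2 had 21.1, 21.4 and 20.9 FPKM in Dox libraries, against 50.4, 56.8 and 81.8 in Blank libraries. Both were lower in every Dox library, with Blank 4 the highest of its group. The log2 changes were -1.12 (SE 0.184, adjusted p = 0.000172) for Col6a1 and -1.58 (SE 0.172, adjusted p = 1.67e-06) for Col6a2. Without Blank 4 they were -0.92 and -1.37, still called. Col6a3, the third chain of the classical type VI trimer, stayed at 0.0622 to 0.314 FPKM in all 18 libraries.

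Col18a1, a heparan sulfate-bearing multiplexin and the source of endostatin, was the only collagen gene called higher. It had 7.20, 8.43 and 7.497 FPKM in Dox libraries, against 3.52, 4.36 and 5.08 in Blank libraries, with no overlap, and was 1.78-fold higher (log2 0.84, SE 0.137, adjusted p = 0.000153). Col16a1, a FACIT collagen, had 7.08, 6.76 and 8.27 FPKM in Dox libraries, against 8.50, 11.2 and 9.98 in Blank libraries (log2 -0.42, SE 0.116, adjusted p = 0.0112). Its groups were close and the call was lost without Blank 2 (adjusted p = 0.0666). Over all settings run, 10 of the 13 calls held in each setting that tested the gene. Of these 10, Col4a4 was tested in 15 alternative settings and the others in 17. The calls of Col16a1, Col4a5 and Col5a2 were lost in some.

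Doxorubicin in the presence of isoliensinine was compared with isoliensinine alone, and this comparison shares no library with that of Dox and Blank. In D_I cells 9 of 30 collagen genes were lower than in B_I cells and 1 was higher, where 9.41% of all tested genes were lower and 9.41% higher. The 9 lower genes made up 75% of the 12 that were lower in Dox and 100% of those lower in D_I, and Col18a1 was the higher gene in both. The share of calls repeated over all tested genes was not computed, so this overlap is not read as particular to collagen genes. The list had a median log2 change of -0.53, against 0.08 over all tested genes. Under library totals the calls over all genes were 2284 higher and 836 lower, against 1259 each with TMM, and 4 collagen genes were higher and 9 lower.

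Col1a1 had 303, 324 and 323 FPKM in D_I libraries, against 744, 675 and 798 in B_I libraries (log2 -1.22, SE 0.118, adjusted p = 4.24e-07). Col1a2 had 164, 173 and 177 FPKM in D_I libraries, against 538, 461 and 620.5 in B_I libraries (log2 -1.66, SE 0.131, adjusted p = 3.00e-08). Col3a1 had 1.57, 1.26 and 2.41 FPKM in D_I libraries, against 13.7, 10.4 and 16.3 in B_I libraries (log2 -2.94, SE 0.266, adjusted p = 4.74e-07). All D_I libraries were below all B_I libraries for these 3 genes, with Col3a1 again the gene that changed most.

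Col18a1 had 7.01, 7.90 and 7.31 FPKM in D_I libraries, against 4.05, 4.52 and 4.79 in B_I libraries, without overlap (log2 0.73, SE 0.137, adjusted p = 0.000674). Col6a1 had 113, 119 and 127 FPKM in D_I libraries, against 168, 162 and 297 in B_I libraries (log2 -0.80, SE 0.183, adjusted p = 0.0037). Without B_I 3 and Blank 4 that change was -0.50 and still called. Col6a2 (log2 -1.34), Col4a4 (-1.61), Col11a1 (-1.42), Col5a2 (-0.66) and Col4a6 (-0.62) were also lower. Col4a1 (log2 0.21, adjusted p = 0.195) and Col4a2 (0.22, adjusted p = 0.262) were not called with all libraries and TMM scaling, but without B_I 3 and Blank 4 they were called higher (0.26 and 0.34, adjusted p = 0.0353 and 0.0109), as they were under library totals (0.38 and 0.39, adjusted p = 0.00359 and 0.00776). Col7a1 was gained as lower without B_I 3 (-0.78, adjusted p = 0.0247). Col5a1 (log2 -0.39, adjusted p = 0.0508), Col4a5 (-0.28, adjusted p = 0.299) and Col16a1 (-0.13, adjusted p = 0.497) were called in Dox against Blank but not here. The miss of Col5a1 was narrow: DESeq2 (adjusted p = 0.0209) and upper-quartile scaling (0.0255) called it, and without B_I 3 its log2 change was -0.24 (adjusted p = 0.239). Col4a5 was called without B_I 3 and Blank 4 (log2 -0.42, adjusted p = 0.0309). The test of whether these 3 changes differ is the interaction given with the isoliensinine results.

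**Figure D3:**
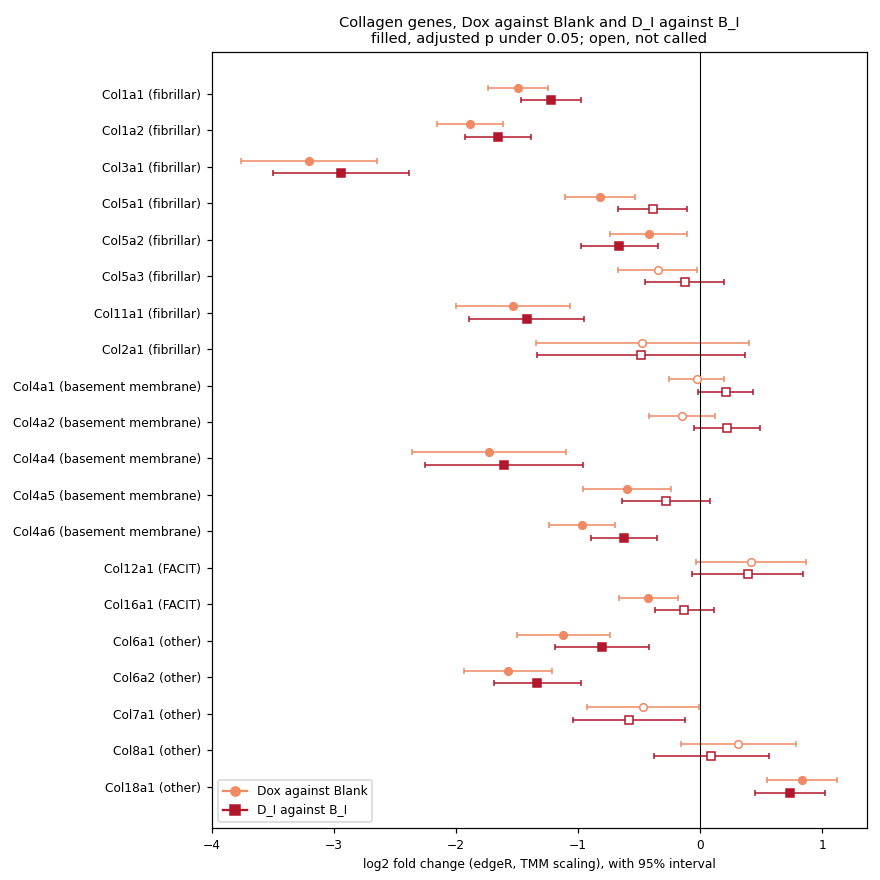
Log2 fold changes with 95% intervals of the 20 collagen genes reported by name, for Dox against Blank (circles) and D_I against B_I (squares), filled where the adjusted p was under 0.05. Col3a1 lies farthest to the left in both, at -3.21 and -2.94, Col4a1 and Col4a2 lie between -0.15 and 0.22, open, and Col18a1 lies to the right at 0.84 and 0.73.

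Hydrogen peroxide moved fewer genes. In H2O2 cells 6 of 30 collagen genes were lower than in Blank cells and 0 were higher, where 0.793% of all tested genes were lower and 0.636% higher. Of these 6, 4 were fibrillar and 2 basement membrane genes. An unadjusted p under 0.05 was reached by 16 of 30 collagen genes in either direction, and by 13.6% of all tested genes. This comparison uses the same Blank libraries as that of Dox, so the values are given side by side and their likeness is not read as a result.

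Col1a1 had 528, 493 and 386 FPKM in H2O2 libraries, against 743, 829 and 919 in Blank libraries (log2 -0.82, SE 0.117, adjusted p = 0.000481). Col1a2 had 349, 352 and 279.7 FPKM in H2O2 libraries, against 546, 619 and 697 in Blank libraries (log2 -0.92, SE 0.128, adjusted p = 0.000469). The H2O2 libraries of both genes lay between the Dox and the Blank ranges and overlapped neither. Col4a6 had 14.2, 17.1 and 13.3 FPKM in H2O2 libraries, against 23.02, 28.3 and 27.5 in Blank libraries (log2 -0.82, SE 0.130, adjusted p = 0.0016).

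Col3a1 had 8.20, 9.72 and 6.09 FPKM in H2O2 libraries, against 14.9, 19.4 and 17.6 in Blank libraries, a separation at a level well above that of the Dox libraries. Its log2 change was -1.11 (SE 0.245, adjusted p = 0.0253). Col4a4 (log2 -1.34, adjusted p = 0.0262) and Col11a1 (-0.90, adjusted p = 0.0459) were lower at low levels, of at most 0.483 and 1.75 FPKM in the H2O2 libraries. The calls of these 3 genes were each lost when some single libraries were left out. Without H2O2 1, the adjusted p was 0.0785 for Col3a1, 0.106 for Col4a4 and 0.165 for Col11a1. H2O2 3 also differed from its group, with type I at 64.0% of the summed collagen FPKM, against 69.7% in H2O2 1 and in H2O2 2. Without H2O2 3, Col3a1 (adjusted p = 0.112) and Col11a1 (adjusted p = 0.116) were not called, while Col4a4 stayed called.

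The type VI genes were not called, with log2 changes of -0.65 for Col6a1 (adjusted p = 0.0839) and -0.62 for Col6a2 (adjusted p = 0.0684). Without Blank 4 they were -0.40 (adjusted p = 0.237) and -0.38 (adjusted p = 0.193), and without Blank 4 and B_I 3 they were also -0.40 and -0.38, with adjusted p of 0.00869 and 0.0346. Without both libraries 8 collagen genes were called: Col6a1, Col6a2 and Col4a5 were gained and Col3a1 was lost (adjusted p = 0.0672). Col4a1 and Col4a2 were not called, with log2 changes of -0.07 each, which turned positive under library totals. The count of 6 rests on the spread shared by all 18 libraries: a fit of the H2O2 and Blank libraries alone called 0 collagen genes and 5 of all genes, and DESeq2 called 9 collagen genes, all lower. Library totals turned the calls over all genes to 307 higher and 80 lower, against 85 and 106 with TMM.

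With isoliensinine present in both groups, 4 of 30 collagen genes were lower in H_I than in B_I cells and 0 were higher, where 0.994% of all tested genes were lower and 0.464% higher. Col1a1 had 425, 501 and 464 FPKM in H_I libraries, against 744, 675 and 798 in B_I libraries (log2 -0.67, SE 0.117, adjusted p = 0.00599). Col1a2 had 279, 357 and 329.7 FPKM in H_I libraries, against 538, 461 and 620.5 in B_I libraries (log2 -0.75, SE 0.128, adjusted p = 0.00599). For both genes the H_I range ended below the B_I range. Library totals turned the calls over all genes to 212 higher and 66 lower, against 62 and 133 with TMM.

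Col6a2 had 30.04, 36.2 and 32.9 FPKM in H_I libraries, against 49.0, 49.0 and 76.7 in B_I libraries (log2 -0.82, SE 0.169, adjusted p = 0.0178). Col4a6 had 12.8, 15.8 and 17.6 FPKM in H_I libraries, against 22.6, 19.7 and 24.95 in B_I libraries (log2 -0.54, SE 0.130, adjusted p = 0.0415). Col3a1 had 5.82, 10.9 and 11.3 FPKM in H_I libraries, against 13.7, 10.4 and 16.3 in B_I libraries, which overlapped, and was not called (log2 -0.53, adjusted p = 0.262). H_I 1 was the lowest H_I library for Col1a1, Col1a2, Col3a1, Col4a6 and Col6a2 and had the highest sum of colon markers, 259 FPKM. Without it the log2 changes were -0.60 for Col1a1, -0.64 for Col1a2, -0.74 for Col6a2 and -0.41 for Col4a6, and 0 of the 4 were called. Without B_I 3, Col6a2 was at -0.57 (adjusted p = 0.0971) and Col4a6 at -0.45 (adjusted p = 0.184), both not called, and Col1a1 and Col1a2 stayed called. Without B_I 3 and Blank 4 the calls were Col1a1, Col1a2, Col6a2 and Col6a1. The part of the colon markers in these changes was not tested.

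**Figure D4:**
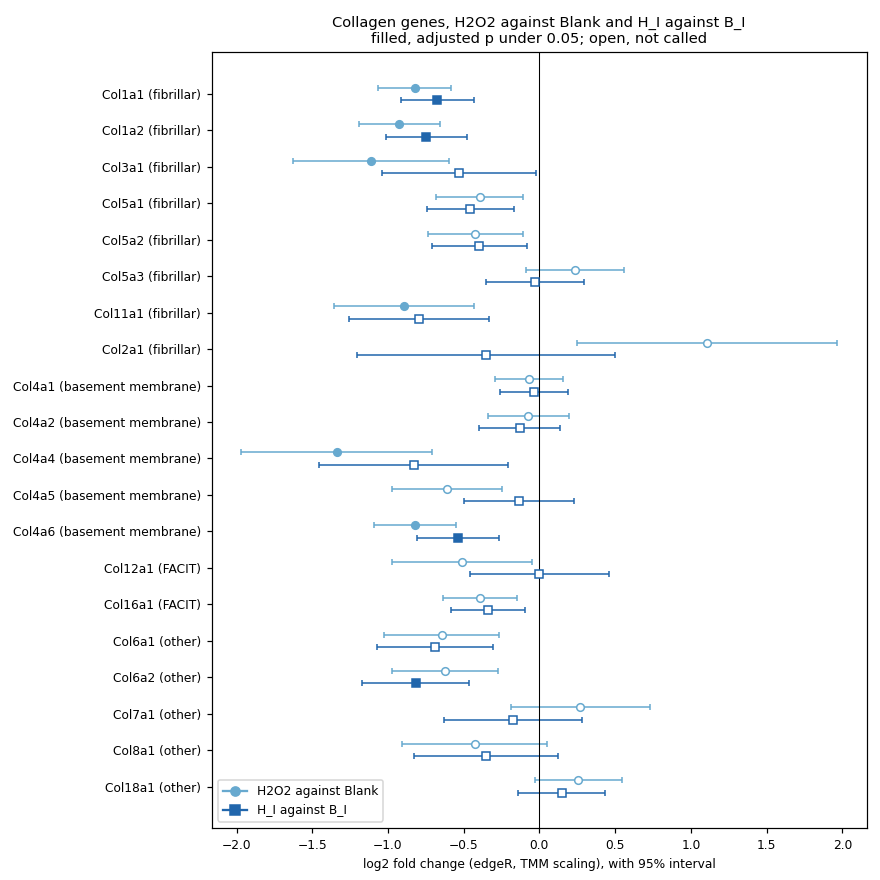
Log2 fold changes with 95% intervals of the same 20 collagen genes for H2O2 against Blank (circles) and H_I against B_I (squares), filled where the adjusted p was under 0.05. Col1a1, Col1a2 and Col4a6 are filled in both, between -0.92 and -0.54, and the intervals of Col4a1 and Col4a2 cross 0.

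The inducers were also set against each other directly, which asks where doxorubicin and hydrogen peroxide left different collagen levels. Between Dox and H2O2 cells 8 of 30 collagen genes were lower in Dox and 3 were higher, where 6.33% of all tested genes were lower and 6.73% higher. The lower genes included 6 of 10 tested fibrillar genes, led by Col3a1 (4.27-fold lower, log2 -2.09, SE 0.257, adjusted p = 3.73e-05), and none of the 6 basement membrane genes. Col1a2 (log2 -0.96), Col6a2 (-0.95) and Col1a1 (-0.67) were also lower, and the calls of these 4 genes held in all settings run. With the doses unknown here, these values compare cultures and not potencies.

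The remaining calls between Dox and H2O2 were of weakly expressed genes or small changes and were each lost in some setting. Col5a1 (log2 -0.43), Col7a1 (-0.74), the anchoring fibril gene, Col5a3 (-0.58) and Col2a1 (-1.58), the cartilage fibril gene, were lower in Dox. Col2a1 had 0.0963, 0.142 and 0.162 FPKM in Dox libraries, against 0.473, 0.288 and 0.437 in H2O2 libraries. Col18a1 (log2 0.58), Col12a1 (0.93), a FACIT gene, and Col8a1 (0.74), a network-forming gene of vessel walls, were higher in Dox. Col12a1 had 3.36, 2.65 and 4.66 FPKM in Dox libraries, against 1.81, 2.40 and 1.40 in H2O2 libraries, and without Dox 3 it was no longer called (adjusted p = 0.0761).

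Ratios between chains within a library do not depend on the scaling between libraries. Col1a1 over Col1a2 was 1.78, 1.76 and 1.72 in Dox libraries, against 1.36, 1.34 and 1.32 in Blank libraries. It was 1.84, 1.88 and 1.82 in D_I libraries, against 1.38, 1.46 and 1.29 in B_I libraries. H2O2 was also separate from Blank, at 1.43 ± 0.0705 against 1.34 ± 0.0225, while H_I overlapped B_I. The doxorubicin libraries lay above all others, with means of 1.75 ± 0.0316 against 1.34 ± 0.0225 and of 1.85 ± 0.0297 against 1.38 ± 0.0893 (SD, n = 3). Native type I collagen holds alpha-1 and alpha-2 chains in unequal number, and FPKM divides by gene length, so the ratio is read only between groups.

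Col6a1 over Col6a2 was 5.15, 5.08 and 5.40 in Dox libraries, against 3.98, 3.63 and 3.81 in Blank libraries. It was 5.46, 5.30 and 4.88 in D_I libraries, against 3.43, 3.30 and 3.88 in B_I libraries. Again all doxorubicin libraries lay above all the others, while hydrogen peroxide groups overlapped their controls, with means of 3.75 ± 0.229 in H2O2 and 3.81 ± 0.177 in Blank (SD, n = 3). B_I 3 and Blank 4, which had high type VI levels, did not stand apart in this ratio. In both trimers the alpha-2 gene was thus lower relative to the alpha-1 gene in every doxorubicin library than in any other. By the exact permutation test both ratios had p = 0.1, the lowest value possible, in Dox against Blank and in D_I against B_I. The adjusted value was 0.2 in each case. The share of other gene pairs whose ratio separates in this way was not computed.

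Col4a1 over Col4a2, the pair with a shared start region, ran from 0.828 to 1.04 over the 18 libraries. It was separate in Dox against Blank, at 0.989 ± 0.00677 against 0.912 ± 0.0254 (SD, n = 3), and overlapped in D_I against B_I. Col4a5 over Col4a6 was 0.335 in B_I 3 and 0.307 in Blank 4, against 0.497 to 0.640 in the other 16 libraries. Those 2 libraries set the spread of this ratio in B_I and Blank. Col5a1 over Col5a2 was 0.836 ± 0.0784 in Dox against 1.09 ± 0.135 in Blank, but 1.10 ± 0.0565 in D_I against 0.905 ± 0.137 in B_I (SD, n = 3), with separate groups in opposite directions.

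**Figure D5:**
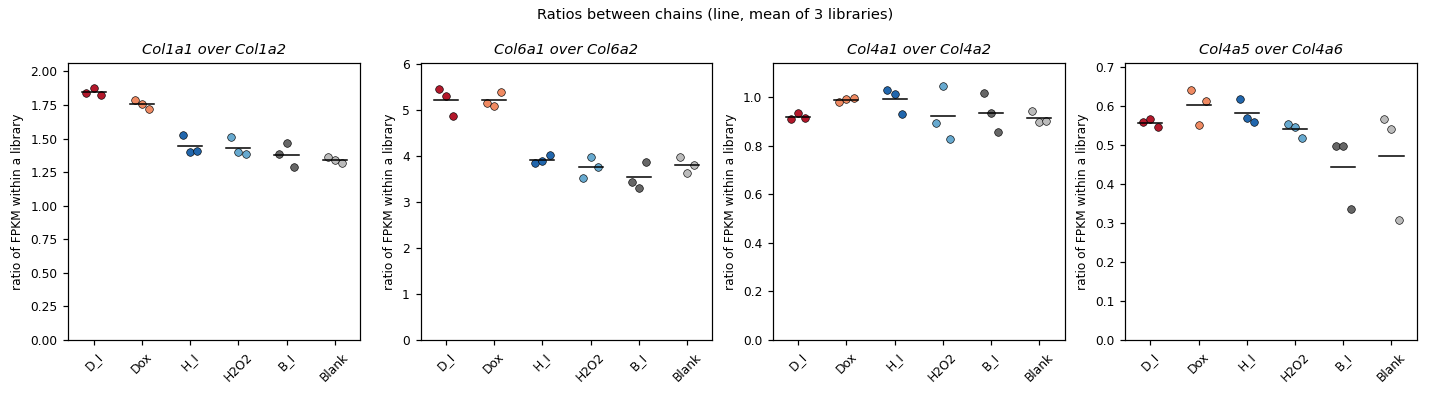
Ratio of the FPKM of chain pairs within each library, with a point per library and a line at the mean of 3. For Col1a1 over Col1a2 and Col6a1 over Col6a2 the 6 doxorubicin libraries lie above the 12 others, and for Col4a5 over Col4a6 only B_I 3 and Blank 4 lie apart, at 0.335 and 0.307.

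Isoliensinine was tested alone (B_I against Blank) and on top of each inducer (D_I against Dox and H_I against H2O2). In each comparison 0 of 30 collagen genes were called, where 0.0% of 13375 tested genes were called by edgeR. DESeq2 also called 0 collagen genes in each, with 1, 18 and 81 of all genes. An unadjusted p under 0.05 was reached by 0 of 30 collagen genes for isoliensinine alone, by 1 with doxorubicin and by 2 with hydrogen peroxide, where 4.79%, 4.16% and 6.84% of all tested genes reached it. Groups that did not overlap were found for 2, 6 and 5 of 30 collagen genes, where 7.29%, 18.8% and 12.1% of all tested genes did not overlap.

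Col3a1 had 1.75 ± 0.593 FPKM in D_I and 1.88 ± 0.250 in Dox (SD, n = 3), a log2 difference of -0.10 with a 95% interval of -0.64 to 0.44. For Col1a1 the log2 difference of D_I from Dox was 0.11 (-0.14 to 0.35), and for Col1a2 it was 0.03 (-0.24 to 0.29). None of these intervals reaches the distance between Dox and Blank for the same gene. Col3a1 differed by a log2 of 0.22 (-0.29 to 0.73) between H_I and H2O2. The collagen genes under an unadjusted p of 0.05 were Col5a3 in D_I against Dox (log2 0.35, adjusted p = 0.999), and Col2a1 (log2 -0.86, adjusted p = 0.723) and Col15a1 in H_I against H2O2 (adjusted p = 0.350). They were chosen here after their values were seen, and Col15a1, a multiplexin, did not exceed 0.325 FPKM in any library.

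Whether isoliensinine acted differently with an inducer than without was tested as an interaction. For D_I against Dox minus B_I against Blank, and for H_I against H2O2 minus B_I against Blank, 0 collagen genes and 0 of all genes were called by edgeR, and DESeq2 called 3 and 2 of all genes. Each contrast had 1 of 30 collagen genes at an unadjusted p under 0.05, where 3.9% and 6.08% of all tested genes reached it. The first contrast equals D_I against B_I minus Dox against Blank, so it also tests the differences between those comparisons, and it gave a log2 of 0.43 for Col5a1 (SE 0.193, the gene under 0.05), 0.32 for Col4a5 (SE 0.245) and 0.30 for Col16a1 (SE 0.165). Col2a1 was the gene under 0.05 in the other contrast (log2 -1.46, SE 0.582, adjusted p = 0.765).

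Procollagen chains need helpers before they reach the matrix, and lists of these genes were counted beside the chains. Of 21 genes for chain folding, hydroxylation and secretion, 20 were tested, and 9 were lower and 2 higher in Dox than in Blank. The shares of all tested genes to read these lists against are those given with each comparison, 11.4% lower and 10.3% higher here, 9.41% each in D_I against B_I, and under 1% each way in both hydrogen peroxide comparisons. Serpinh1, the collagen-specific chaperone HSP47, was at 903 FPKM in Dox and 1389.7 in Blank on average (log2 -0.62, SE 0.118, adjusted p = 0.000627). Colgalt1, which adds galactose to hydroxylysine, fell (log2 -0.70, adjusted p = 3.78e-06), as did P3h3, a member of the prolyl 3-hydroxylase family (-0.63). P4ha1, a catalytic subunit of prolyl 4-hydroxylase (0.39), and Plod2, the telopeptide lysyl hydroxylase (0.67), were higher, both in calls lost when single libraries were left out. In D_I against B_I 4 genes of this list were lower and 2 higher, P4ha1 (0.37) and Plod1 (0.28), while Plod2 was not called (-0.079, adjusted p = 0.858). In H2O2 against Blank P3h3 alone was lower, in a call lost without several single libraries, and in H_I against B_I 3 were lower.

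Procollagen processing and crosslinking genes split by member. In Dox against Blank 4 of 13 tested (15 listed) were lower and 2 higher. Adamts2, which removes the amino propeptide, was at 4.70 ± 0.310 FPKM in Dox against 13.6 ± 0.605 in Blank (SD, n = 3; edgeR log2 -1.53, SE 0.105, adjusted p = 3.47e-09). Pcolce, the enhancer of carboxyl propeptide removal, was lower (log2 -1.12, adjusted p = 4.47e-07). Among lysyl oxidases, Loxl1 (-0.96, adjusted p = 0.00167) and Loxl3 (-0.64, adjusted p = 0.000998) were lower, while Loxl2 (1.15, adjusted p = 1.73e-05) and Loxl4 (0.68, adjusted p = 0.00024) were higher. Lox itself was not called in Dox against Blank (log2 -0.17, adjusted p = 0.595), and its sign turned under library totals, but it was lower in D_I against B_I (-0.65, adjusted p = 0.0239). In D_I against B_I 5 were lower and 2 higher, and in H2O2 against Blank and in H_I against B_I Adamts2 alone was lower (-0.51 and -0.55), the first in a call lost without H2O2 2.

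Receptor and breakdown genes were counted in the same way. Of 8 tested collagen receptor genes (10 listed) only Itgb1, the shared beta-1 integrin subunit, was called in Dox against Blank, and it was higher (log2 0.65, SE 0.158, adjusted p = 0.0048). Of 5 tested collagenase and gelatinase genes (8 listed) Mmp2 (0.40) and Mmp15 (0.76) were higher and Mmp14 (-0.62) was lower, with the calls of Mmp2 and Mmp15 lost without single libraries. In D_I against B_I 2 receptor genes were higher and 1 lower, as were 2 and 1 of the collagenase genes. In H2O2 against Blank 0 members of either list were called, and in H_I against B_I only Mmp14 was lower (-0.41).

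The other 24 collagen genes were low in all groups. Of these 10 were tested, with a highest level of 0.565 FPKM, reached by Col14a1. Members with a call were set apart beforehand to be reported by name, so the lack of calls among these 10 is not a result. The remaining 14, with 8 to 102 counts in all 18 libraries together, did not pass the filter and stayed at or below 0.236 FPKM. They include the cartilage genes Col9a1, Col9a2 and Col9a3 and the epithelial gene Col17a1. At these depths a change in them was not detectable.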

How the data were processed

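RNA was sequenced from 18 MOVAS cultures, 3 in each of 6 groups, which the series text calls biological replicates. The submitters' processing notes name fastp 0.22.0, HISAT2 2.1.0 and HTSeq 0.9.1. No source used here names the genome build. The authors deposited a whole-number count and an FPKM value per gene and library, and the deposited FPKM is the count scaled to gene length and library total. The 51 genes without a symbol hold 0.0187% of counts.

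Counts were fitted over all 18 libraries with edgeR 4.0.16 (R 4.3.3, TMM, filterByExpr, robust quasi-likelihood test), which tested 13375 genes with a biological coefficient of variation of 0.219. Calls need a Benjamini-Hochberg adjusted p under 0.05 over all tested genes, and every adjusted p quoted is from this fit or its named alternative. Intervals are 95% t intervals of the fit. The script was tested on simulated data. Levels are the deposited FPKM divided by TMM factors. Collagen genes with a group mean of at least 5 in the deposited FPKM, or with a call, are reported by name. Part of them are given with values per library and the others with log2 changes alone. DESeq2 1.42.0, limma 3.58.1 on log2(FPKM + 1) and log2(FPKM + 0.1), other scalings, filters, a replicate block and libraries left out were alternatives. 1 interaction was added after seeing the data. The members, gene lists and tests were chosen with earlier results of these data known.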

Additional observations from a re-analysis of the deposited data

Results flagged for a closer look

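Col5a1 and Col6a1 had differences of opposite sign with isoliensinine under the 2 inducers, none of them called. For Col5a1 every D_I library lay above every Dox library (log2 0.21), while every H_I library lay below every H2O2 library (log2 -0.28). For Col6a1 the same held, with log2 values of 0.12 and -0.24. Groups that do not overlap were found for 18.8% of all tested genes in D_I against Dox and for 12.1% in H_I against H2O2. The difference was tested as an interaction added after seeing the data (edgeR's quasi-likelihood test): it was 0.49 for Col5a1 (SE 0.194, adjusted p = 0.566) and 0.36 for Col6a1 (SE 0.258, adjusted p = 0.737). Neither passed the threshold, and 0 of all genes did, with 1054 of 13375 at an unadjusted p under 0.05. Col5a1 was among these, as were Col2a1, Col4a2, Col5a3 and Col15a1, while Col6a1 was not (unadjusted p = 0.178). The share of all genes without overlap in both comparisons and with opposite signs was not computed.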

How the results depend on the processing

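Of 1314 gene values under the alternatives, 1147 kept direction and side of the threshold, 123 lost their call, 15 gained one and 29 reversed. The causes were not tested. These values cover 79 gene results, mostly ones called in the main fit. The gains of Col4a1, Col4a2 and Col7a1 in D_I against B_I lie outside them and are not among the 15. Reversals were of uncalled changes. Col4a1 in Dox against Blank was 0.15 and 0.16 with limma, 0.16 with library totals, 0.089 with the replicate block, 0.080 without Blank 4 and B_I 3, and -0.13 to 0.076 without single libraries (positive without Dox 2 or Blank 4). In H2O2 against Blank it was 0.055 and 0.057 with limma, 0.056 with library totals, 0.049 with the block, 0.081 without Blank 4 and B_I 3, and -0.13 to 0.076 without single libraries (positive without Blank 4). Col4a2 in Dox against Blank was 0.039 and 0.041 with limma and 0.041 with library totals. In H2O2 against Blank it was 0.048 and 0.049 with limma, 0.049 with library totals, 0.016 with the block, 0.086 without both libraries, and -0.16 to 0.081 without single libraries (positive without H2O2 2 or Blank 4). Col16a1 in D_I against B_I was 0.030 and 0.033 with limma and 0.037 with library totals. Without single libraries Col3a1 in D_I against Dox was -0.41 to 0.086 (positive without D_I 2) and Lox in Dox against Blank -0.32 to 0.011 (positive without Dox 2), and Lox was 0.00311 with library totals. Collagen calls in H_I against B_I were 7 with DESeq2 and with the block and 2 in a fit of those groups, and in H2O2 against Blank 0 in a fit of those groups. All genes called in H_I against B_I were 530 with DESeq2, 364 and 356 with limma, 53 in a fit of those groups and 616 with the block, against 195. In H2O2 against Blank they were 411 with DESeq2, 506 and 512 with limma, 387 with library totals, 5 in a fit of those groups and 538 without Blank 4 and B_I 3, against 191. For isoliensinine, where 0 genes were called, B_I against Blank gave 1 with DESeq2 or no filter and 3 without both libraries, and D_I against Dox gave 18 with DESeq2, 1 with limma and library totals, 2 with no filter, 240 in a fit of those groups and 4 with the block. H_I against H2O2 gave 81 with DESeq2 and 2 with the block. The interaction of D_I gave 3 with DESeq2, 1 with library totals or no filter, 3 with the block and 8 without both libraries, and that of H_I 2 with DESeq2 and 1 with limma. Leaving out single libraries gave 10 to 13 collagen calls in Dox against Blank, 10 to 12 in D_I against B_I, 6 to 9 in Dox against H2O2, 3 to 6 in H2O2 against Blank and 0 to 6 in H_I against B_I. Over all genes it gave 1903 to 2897, 1638 to 2573, 838 to 1773, 99 to 262 and 37 to 430 in the same order, 0 to 4 in B_I against Blank and in the interaction of D_I, 0 to 10 in H_I against H2O2 and 0 in D_I against Dox. Of 40 same-numbered pairs of libraries, 9 correlated above 0.1 in their deviations from the group means. Their median was 0.0473 and their highest value 0.279, against a median of -0.00699 for the other pairs. B_I 3 and Blank 4, numbered differently, correlated at 0.334. These values do not settle whether the numbers mark paired cultures, so the block is not read as a paired test. Depth limits the 14 untested collagen genes.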
